A study of Mus musculus with 8 samples.

Results

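The Reg family of secreted lectins was examined in RNA sequencing of KPC pancreatic tumors. Its members were the 7 genes named Reg1, Reg2, Reg3a, Reg3b, Reg3d, Reg3g and Reg4, which are 7 of the 29968 genes in the deposited table. They were taken by name and read from the raw counts of all 8 tumors, with Prss2, which encodes anionic trypsin, as the measure of acinar content. The family was selected on its counts in these tumors and on how they compared with Prss2, both already known, so its levels, its genotype differences and its relation with Prss2 are given as a description and support nothing further. The tumors came from 4 WT mice (C57BL/6J) and 4 C3-/- mice, which lack the complement gene C3. All were males of 12 weeks. Each received 250000 KPC FC1245 cells in 50 μL of PBS into the tail of the pancreas and reached the endpoint at day 14. FC1245 is 1 cell line, isolated from a pancreatic tumor of a genetically engineered mouse with Pdx-1-Cre, and the same line went into both genotypes, so C3 is missing from the host and not from the injected cells. The question asked of the pair of genotypes was whether loss of host C3 altered the tumor transcriptome.

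Reg proteins are small secreted proteins built around a C-type lectin domain. Reg1 and Reg2 belong to the lithostathine branch and are made by pancreatic acinar cells, and Reg1 is also known from regenerating islets. The Reg3 proteins are best known from the intestine, where Reg3b and Reg3g act as antibacterial lectins, and Reg3b is also called pancreatitis-associated protein because injured acinar cells make large amounts of it. Reg4 is a more distant member of the gut epithelium. Cytokines that signal through STAT3, such as IL-6 and IL-22, are known inducers of Reg3 genes, and EXTL3 has been described as a Reg receptor.

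All members except Reg4 lie in a single cluster at chr6:78347640-78445855 of mm39, a span of 98.2 kb, in the order Reg3b, Reg3d, Reg3a, Reg2, Reg1 and Reg3g. No other annotated gene lies between them, and none overlaps a member. Reg4 stands apart at chr3:98129472-98144064. The coding sequences of Reg1 and Reg2 were 82.6% identical and those of Reg3b and Reg3g 76.4%, while the other pairs ranged from 58.5% to 73.5%. The longest run of identical bases shared by any pair was 35 and no pair shared a run of 50, so reads of one member could fit another only over short stretches.

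The sequences before the transcription start are shown because these neighbours had slopes on Prss2 from 0.29 to 1.04 (values below). Each is read 5′ to 3′ from the RefSeq promoter table (GRCm38.p6) and was found once in GRCm39, whose coordinates are given. Each runs over up to 250 bases before the start, and bases inside annotated exons of the gene were left out. Capitals mark CACCTG, an E-box that the acinar factor PTF1A can bind, TTCNNNGAA, the palindrome that STAT factors bind, and TATAAA.
Prss2 (chr6:41498460-41498709, plus strand): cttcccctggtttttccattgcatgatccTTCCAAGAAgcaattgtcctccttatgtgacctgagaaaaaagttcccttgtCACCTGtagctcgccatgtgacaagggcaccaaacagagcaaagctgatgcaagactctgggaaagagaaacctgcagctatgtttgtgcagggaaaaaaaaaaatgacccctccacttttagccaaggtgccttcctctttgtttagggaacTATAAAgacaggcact
Reg2 (chr6:78381888-78382137, plus strand): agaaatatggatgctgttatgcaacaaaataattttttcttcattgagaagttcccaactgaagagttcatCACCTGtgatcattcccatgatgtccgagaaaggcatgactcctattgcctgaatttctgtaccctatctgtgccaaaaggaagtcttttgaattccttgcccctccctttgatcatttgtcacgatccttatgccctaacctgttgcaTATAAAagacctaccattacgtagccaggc
Reg3d (chr6:78355849-78356098, minus strand): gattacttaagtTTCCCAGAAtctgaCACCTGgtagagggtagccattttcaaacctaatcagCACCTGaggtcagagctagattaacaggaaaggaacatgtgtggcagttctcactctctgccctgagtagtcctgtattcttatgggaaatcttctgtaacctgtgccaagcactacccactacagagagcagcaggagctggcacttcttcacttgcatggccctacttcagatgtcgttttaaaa
Reg3a (chr6:78357442-78357691, plus strand): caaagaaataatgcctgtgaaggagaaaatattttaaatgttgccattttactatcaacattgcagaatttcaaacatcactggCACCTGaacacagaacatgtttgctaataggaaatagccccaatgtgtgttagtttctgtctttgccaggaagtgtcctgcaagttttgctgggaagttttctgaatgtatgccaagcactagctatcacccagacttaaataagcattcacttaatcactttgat
Reg1 (chr6:78402716-78402912, plus strand): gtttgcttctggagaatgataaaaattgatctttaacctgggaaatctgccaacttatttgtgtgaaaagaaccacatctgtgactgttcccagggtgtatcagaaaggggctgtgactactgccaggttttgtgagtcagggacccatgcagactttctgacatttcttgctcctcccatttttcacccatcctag
Reg3g (chr6:78445860-78446107, minus strand): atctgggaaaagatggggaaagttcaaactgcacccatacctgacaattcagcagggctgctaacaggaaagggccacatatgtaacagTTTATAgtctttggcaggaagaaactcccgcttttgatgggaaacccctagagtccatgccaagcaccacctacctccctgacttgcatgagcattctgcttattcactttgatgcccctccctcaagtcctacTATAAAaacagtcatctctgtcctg

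CACCTG was found, on either strand of the 250 bases, before Prss2, Reg2, Reg3a, Reg3b, Reg4 and, at 2 places, Reg3d, and not before Reg1 or Reg3g. It occurs in 17.2% of 32851 promoter windows of that length. TTCNNNGAA was found before Prss2, Reg3b and Reg3d and in 7.02% of all windows. TATAAA was found before Prss2, Reg1, Reg2, Reg3b and Reg3g and in 12.4%. TGGGAA, a core that the PTF1 partner RBPJL can bind, was found before Prss2 and every member but Reg3b and Reg4 and in 21.6%; in Reg3d it overlaps the palindrome at 1 place. AAGGTCA, a core for the acinar regulator NR5A2, was found before none of them and in 4.08%. In Reg1 and Reg3b some of these letters lie in bases left out above or in a window not shown. These are matches of letters and not measured binding.

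The counts per tumor summed to between 13266029 and 23354212, over 22174 to 25343 genes with a count. The C3 gene was read first as a check of the labels. WT tumors had 3370, 5652, 2998 and 7623 C3 counts, and C3-/- tumors had 2338, 2387, 1591 and 1842. C3 was thus lower in every C3-/- tumor, with a log2 fold change of -1.42 (SE 0.23), although its adjusted p was 0.933 in edgeR's quasi-likelihood test. C3-/- replicate 1 stood apart from the other C3-/- tumors in its acinar transcripts, with 5110 Prss2 counts beside 24, 8 and 15, and the genotype differences, slopes, ratios and likeness values below are given with and without it. WT tumors had 782, 411, 402 and 380 Prss2 counts. In these bulk samples, fewer cells of a type and less RNA per cell cannot be told apart.

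Levels are given as FPKM, the authors' counts scaled for library size and gene length, which allows genes to be set beside each other per length. In WT tumors, Reg2 had 28.9 ± 8.80 FPKM, Reg3b 28.7 ± 16 and Reg1 28.7 ± 22.0 (SD, n = 4), which did not differ beyond their spread. Reg3a followed with 4.21 ± 1.13 FPKM, Reg3g with 2.83 ± 0.353 and Reg3d with 1.81 ± 0.989 (SD, n = 4), and the tumors of Reg3a and Reg3g, and of Reg3g and Reg3d, overlapped, whereas all 4 tumors had more Reg1, Reg2 and Reg3b than any had Reg3a. Prss2 itself had 38.4 ± 16.4 FPKM and the chymotrypsinogen gene Ctrb1 119 ± 54.7 (SD, n = 4). The most abundant Reg genes were therefore close to Prss2 in WT tumors. The gene model that sets the length of Reg3g is 2114 bases, whereas its main transcript has 778. The models of Reg3b (1142 against 789 bases) and Reg2 (952 against 698) were also longer, and that of Reg1 was shorter (904 against 948). The FPKM of these genes are thus not on the same footing, Reg3g least of all. In counts, Reg3g was above Reg3a in each WT tumor (108, 86, 77 and 120 against 77, 35, 46 and 73), and their main transcripts are of 778 and 825 bases, so the order of this pair turns with the length used.

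**Figure D1:**
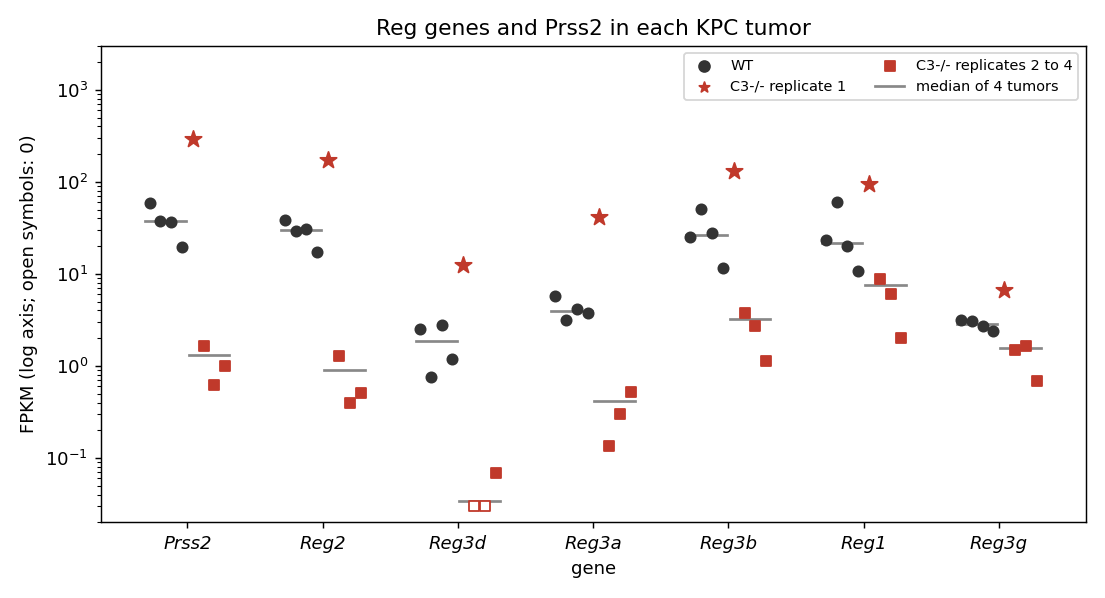
FPKM (log axis) of Prss2 and 6 Reg genes in each of the 8 tumors, with grey lines at the median of each genotype and open symbols for values of 0. C3-/- replicate 1 (star) is the highest tumor for every gene, the other C3-/- tumors (squares) are the lowest, and the 4 WT tumors (circles) lie between them.

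Reg2, the acinar lithostathine-type member, had 587, 372, 394 and 387 counts in WT tumors and 3555, 22, 6 and 9 in C3-/- tumors. C3-/- replicate 1 was thus far above all WT tumors and the other C3-/- tumors far below them. In CPM, counts scaled to a common library size, replicate 1 was 237-fold above the mean of the other C3-/- tumors, against 269-fold for Prss2. The mean of the WT tumors was 39.5-fold above that of the same 3 C3-/- tumors, against 35.4-fold for Prss2.

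Reg3d and Reg3a, which neighbour each other in the cluster, fell into the same groups of tumors, with replicate 1 highest, the WT tumors between and the other C3-/- tumors lowest. Reg3d had 32, 8, 29 and 22 counts in WT tumors and 209, 0, 0 and 1 in C3-/- tumors. Counts of 0 allow up to 3 counts at this depth, and the 3 low C3-/- tumors were at this floor. Reg3a had 77, 35, 46 and 73 counts in WT tumors and 737, 2, 4 and 8 in C3-/- tumors. Replicate 1 was 78.8-fold above the highest of the other C3-/- tumors in CPM of Reg3a.

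Reg3b, the pancreatitis-associated protein, had 462, 769, 422 and 318 counts in WT tumors and 3217, 77, 49 and 24 in C3-/- tumors. The 3 low C3-/- tumors kept more Reg3b than Reg2, with 77, 49 and 24 counts against 22, 6 and 9. Replicate 1 was 51.8-fold above their mean in CPM, and the WT mean was 11.4-fold above it.

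Reg1, the other lithostathine-type gene, had 341, 733, 242 and 229 counts in WT tumors and 1866, 145, 88 and 34 in C3-/- tumors. Its range was narrower, with replicate 1 at 16.9-fold and the WT mean at 5.04-fold the mean of the other C3-/- tumors in CPM. WT replicate 2 had the most Reg1 and Reg3b of the WT tumors. It was also the tumor with the most islet transcripts, with 425 counts of the insulin gene Ins2 against 0 to 21 elsewhere, 303 of Chga against 5 to 42 and 199 of the amylin gene Iapp against 0 to 8. The 14 islet genes together reached 138 CPM of the library total in WT replicate 2 and 31.8 to 46.0 CPM in the other 7 tumors. Of the 4 islet genes tested, 2 were higher and 2 lower in C3-/- tumors and 0 were called by edgeR (1 at an unadjusted p below 0.05). The part of islet RNA in the Reg1 and Reg3b values was not tested.

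Reg3g, the antibacterial lectin, varied least. It had 108, 86, 77 and 120 counts in WT tumors and 305, 57, 56 and 27 in C3-/- tumors, so that replicate 1 was 5.22-fold and the WT mean 2.20-fold the mean of the other C3-/- tumors in CPM. Between its highest and lowest tumor Reg3g differed 9.67-fold in CPM, against 47.0-fold for Reg1, 115-fold for Reg3b, 440-fold for Reg2 and 474-fold for Prss2. Reg4 was at the floor, with 3 counts in WT replicate 2, 3 in C3-/- replicate 4 and 0 in the other tumors, so no fold is given for it.

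Between genotypes, edgeR's quasi-likelihood test called 0 of the 16610 genes tested, which is a background of 0%, at a Benjamini-Hochberg adjusted p below 0.05, while 848 had an unadjusted p below 0.05 and DESeq2 called 16. DESeq2 gave no adjusted p for Reg2, Reg3a and Reg3d, and the 16 held none of the other Reg genes tested. Of the Reg genes, 6 passed the filter on low counts and Reg4 did not. Their log2 fold changes (C3-/- against WT) were -0.012 (SE 0.99) for Reg1, 0.61 (SE 1.45) for Reg2, 1.34 (SE 1.35) for Reg3a, 0.28 (SE 1.21) for Reg3b, 0.81 (SE 1.40) for Reg3d and -0.093 (SE 0.57) for Reg3g. Every adjusted p was 0.999 and the genotypes overlapped for all 6, beside 3.73% of tested genes whose genotypes did not overlap. The SE of each was at least as large as the difference, so neither a change nor its absence can be read from these tumors.

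The direction of Reg2, Reg3a, Reg3b and Reg3d turned under limma-voom and with the replicate number as a block (values below), and it also depended on C3-/- replicate 1. Without it the log2 fold changes were -2.33 for Reg1, -5.28 for Reg2, -3.67 for Reg3a, -3.5 for Reg3b, -5.75 for Reg3d and -1.14 for Reg3g, and the fitted value of Reg3d depends on the prior count because the remaining C3-/- tumors were at the floor. All 3 remaining C3-/- tumors then lay below all 4 WT tumors for each of the 6 genes, beside 6.63% of tested genes with that order. In that fit edgeR called 4 of 16882 genes, or 0.0237%, with Reg2 among them (adjusted p = 0.00986), while Reg3a had an adjusted p of 0.0814 and the other Reg genes had larger ones. Replicate 1 was left out after its values were seen and the family was selected on its counts, so nothing is read from that call. Between these groups of tumors the acinar enzymes differed in the same direction as the Reg genes. Within the WT tumors the sums did not, as WT replicate 2 had the lowest enzyme sum and the highest Reg sum. In CPM, that tumor was the highest WT tumor for Reg1 and Reg3b and the lowest for Reg3a and Reg3d, with Reg2 and Reg3g between. The acinar enzyme list also holds acinar proteins that are not enzymes. Its 28 genes found in the table had a summed level of 229 to 738 CPM of the library total in WT tumors. The sum was 2479 CPM for C3-/- replicate 1, while replicates 2, 3 and 4 had 77.4, 50.3 and 47.7. Over all 8 tumors, 20 of the 24 genes of this list tested were higher and 4 lower in C3-/- tumors, with 0 called by edgeR and 0 at an unadjusted p below 0.05. Without replicate 1, 24 of 24 were lower, with a median log2 fold change of -4.74, 23 had an unadjusted p below 0.05 and 3 were called (edgeR). The acinar share of the RNA and the genotype cannot be told apart in the tumors without replicate 1.

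The Reg genes were then set against Prss2 in a model with genotype, in which a slope of 1 means proportional to Prss2. Across 16609 genes edgeR called 31 with a positive slope (0.187%) and 0 with a negative slope (0%) at an adjusted p below 0.05, with 1685 negative slopes at an unadjusted p below 0.05. Of the 6 Reg genes, 4 were among the 31, and since the family was selected on this relation nothing is read from that count. Reg3d had a slope of 1.04 (SE 0.11, edgeR adjusted p = 0.00877). With 0, 0 and 1 counts in 3 C3-/- tumors, this slope rests on values at the floor. Reg2 had a slope of 1.0 (SE 0.03, edgeR adjusted p = 1.57e-06), near proportional. Reg3a had 0.84 (SE 0.07, adjusted p = 0.00385) and Reg3b 0.72 (SE 0.07, adjusted p = 0.00748). Reg1 had 0.52 (SE 0.09, adjusted p = 0.120) and Reg3g 0.29 (SE 0.05, adjusted p = 0.122), which did not pass. Reg1 was called without WT replicate 2 (0.52, edgeR adjusted p = 0.0161), where 34 of 17075 genes were called. It was also called without WT replicate 3 (0.52, edgeR adjusted p = 0.0256), where 1445 of 17129 were. By size of slope they ranked 14, 15, 25, 28, 33 and 55 of 16609 in the same order.

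**Figure D2:**
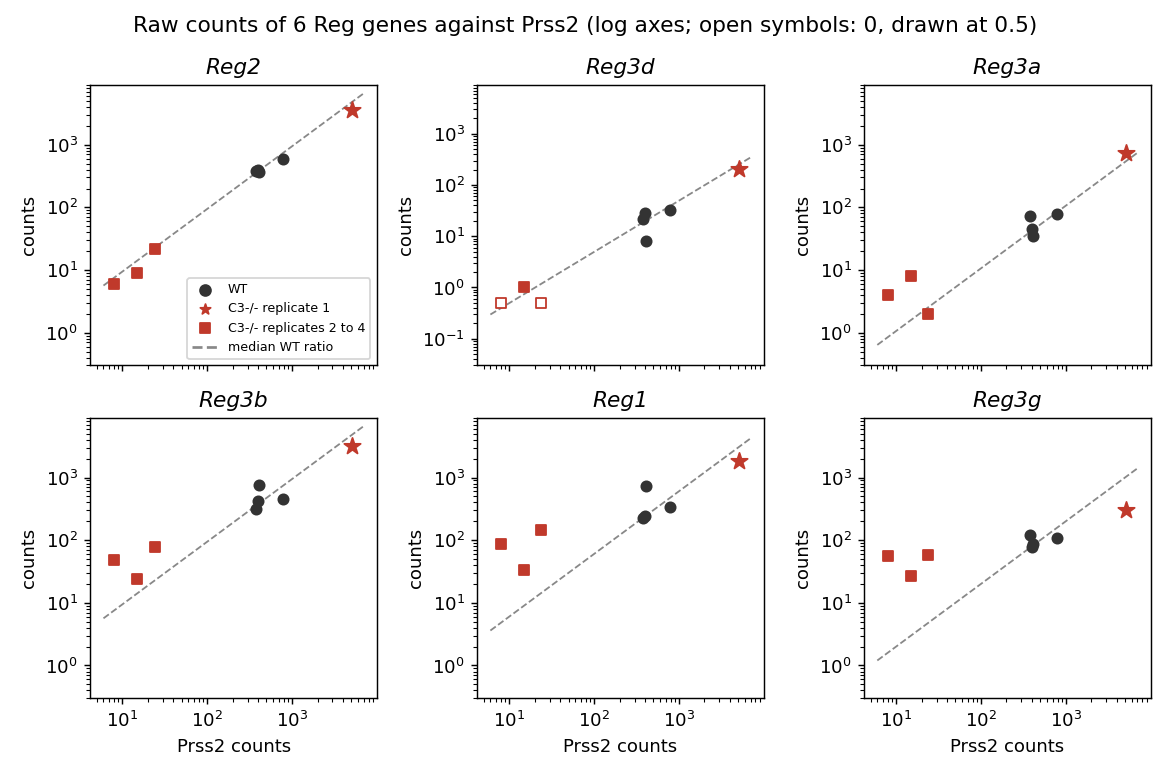
Raw counts of each Reg gene (vertical log axis) against raw Prss2 counts (horizontal log axis) in the 8 tumors. The dashed line is the median WT ratio, along which a gene would lie if it were proportional to Prss2. Reg2 lies along it in all tumors, and Reg1, Reg3b and Reg3g lie above it in the 3 C3-/- tumors with few Prss2 counts.

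The remaining genes called with Prss2 were mostly from the acinar enzyme list. Of the 23 genes of that list tested against Prss2, 17 were called with a positive slope. Their median slope was 0.96 over the 23, against a median of -0.0033 over all genes. Ctrb1 had a slope of 0.98 (SE 0.04). Slopes as low as that of Reg3g also occurred in that list, as Cela1, an elastase gene, had 0.22 (SE 0.05, edgeR adjusted p = 0.148). Of 6 acinar regulators only 3 were tested. The other 3, among them Ptf1a and Rbpjl, had a median count under 10, so their relation with Prss2 is not known. Gata4, Bhlha15 and Nr5a2 did not pass, with slopes of -0.00023, 0.093 and -0.044, and 0 of these 3 were called between genotypes (edgeR, 0 at an unadjusted p below 0.05).

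**Figure D3:**
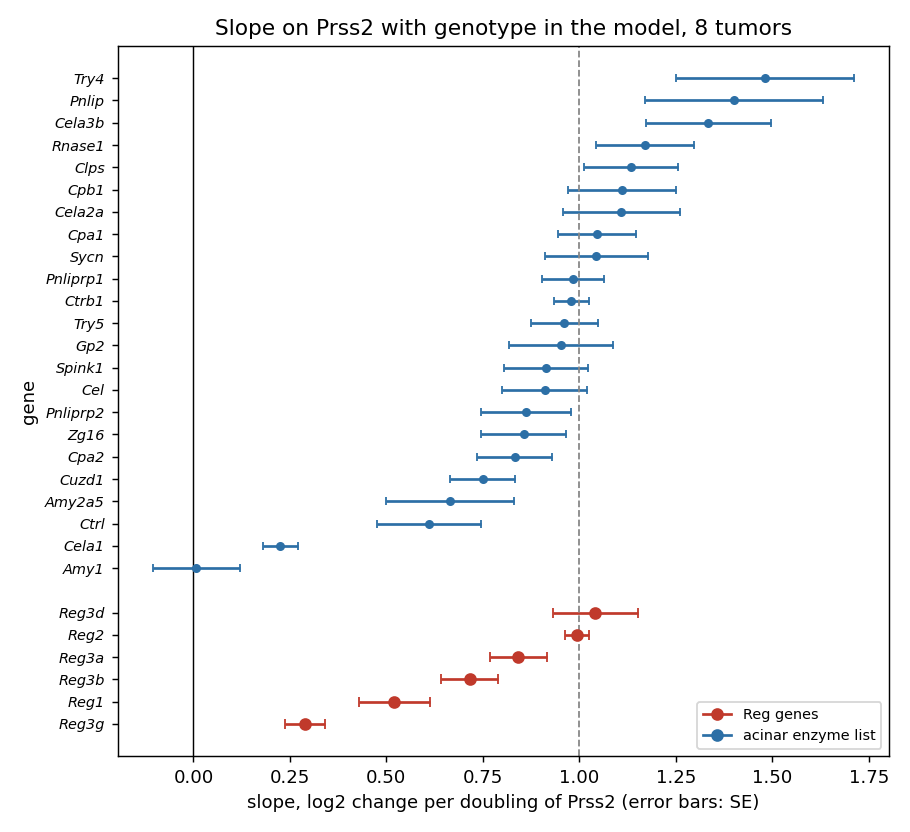
Slope of log2 expression on log2 Prss2 (horizontal axis, log2 change per doubling of Prss2, error bars SE) for the 6 Reg genes tested (red) and 23 genes of the acinar enzyme list (blue). Reg3d and Reg2 sit at the dashed line of proportion, and Reg3g, at 0.29, lies lowest of the Reg genes. The Reg3d slope rests on values at the floor in most C3-/- tumors and was 0.62 (SE 0.61) without C3-/- replicate 1.

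The calls against Prss2 rested on C3-/- replicate 1. The tumors fell into separate clusters of Prss2, namely replicate 1, the WT tumors and the other C3-/- tumors. Correlations pooled over them are therefore given below only as a description of pattern. Without replicate 1, 0 genes were called (edgeR, 307 at an unadjusted p below 0.05), and slopes were 0.89 (SE 0.19) for Reg2, 0.16 (SE 0.40) for Reg3a, 0.68 (SE 0.47) for Reg3b, 0.62 (SE 0.61) for Reg3d, 0.71 (SE 0.59) for Reg1 and 0.12 (SE 0.30) for Reg3g. With these errors only the slope of Reg2 was several times its SE. Without C3-/- replicate 3, Reg3d also lost its call (edgeR adjusted p = 0.0710). With all tumors, 31 of 16609 genes were called with Prss2. Without WT replicate 3 this rose to 1445 of 17129, of which 830 had a positive slope. Reg1 and Reg3g were among the 1445, so their calls came with a rise over the whole table. Within WT tumors alone, with no test, slopes were 0.74 for Reg2, 0.83 for Reg1, 0.80 for Reg3b, 0.58 for Reg3d, 0.34 for Reg3a and 0.25 for Reg3g. Reg3g was lowest in this set too.

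The number of counts per Prss2 count was also read in each tumor without a model. The ratio of Reg2 stayed between 0.60 and 1.02 in all 8 tumors. It was 0.751, 0.905, 0.980 and 1.02 in WT tumors and 0.696, 0.917, 0.750 and 0.60 in C3-/- tumors, and the 95% exact counting interval in C3-/- replicate 3, with 6 counts of Reg2, ran from 0.214 to 2.46. Reg1 had ratios of 0.436, 1.78, 0.602 and 0.603 in WT tumors and 0.365, 6.04, 11.0 and 2.27 in C3-/- tumors. Reg3g had ratios of 0.138, 0.209, 0.192 and 0.316 in WT tumors and 0.0597, 2.38, 7 and 1.80 in C3-/- tumors. The interval of Reg3g in C3-/- replicate 3 ran from 3.32 to 17.0, above that of every WT tumor, the highest of which ended at 0.389. These intervals cover counting error only. Over the 8 tumors the ratio ran from 0.0833 to 0.533 for Reg3a, from 0.591 to 6.13 for Reg3b and from 0 to 0.0721 for Reg3d.

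**Figure D4:**
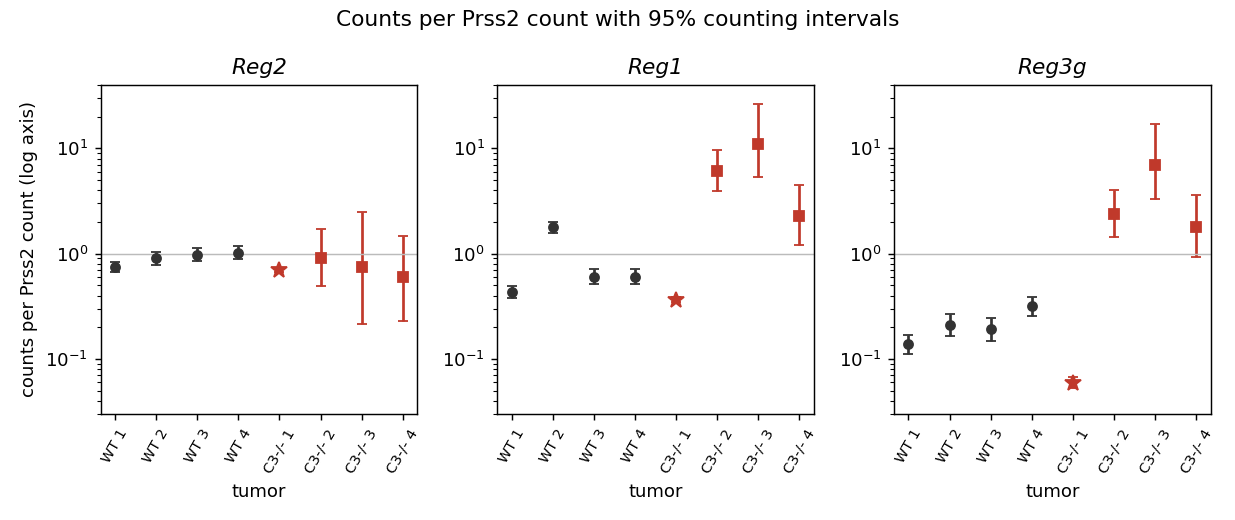
Counts of Reg2, Reg1 and Reg3g per Prss2 count (vertical log axis) in each tumor with 95% exact counting intervals. The Reg2 ratio keeps between 0.60 and 1.02, whereas the Reg1 and Reg3g ratios are lowest in C3-/- replicate 1 and highest in C3-/- replicates 2 to 4.

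In an exact permutation test of the log2 ratio to Prss2 over the 70 splits of the tumors (two-sided, smallest p 0.0286), no Reg gene passed. The family was selected on how its counts compared with Prss2 in these tumors, so nothing is read from the p-values of this test. The difference (C3-/- minus WT, log2) was 1.80 for Reg1 (p = 0.229), -0.26 for Reg2 (p = 0.143), 1.29 for Reg3a (p = 0.114), 1.0 for Reg3b (p = 0.257), 1.02 for Reg3d (p = 0.200) and 2.40 for Reg3g (p = 0.143) in this exact test. With 0, 0 and 1 counts in 3 C3-/- tumors, the Reg3d difference depends on the pseudocount, and its raw ratios were not higher in C3-/- tumors (0 to 0.0667) than in WT tumors (0.0195 to 0.0721). With a pseudocount of 1 CPM in place of 0.1 the differences were 1.93 for Reg3d, 0.58 for Reg3b and -0.11 for Reg2. Without replicate 1 the differences were 2.73 for Reg1, -0.22 for Reg2, 1.62 for Reg3a, 1.55 for Reg3b, 1.42 for Reg3d and 3.79 for Reg3g. In the exact test Reg3g then had p = 0.0286 and the other Reg genes 0.0571 to 0.257. This tumor was left out after its values were seen, so nothing is read from these p-values either.

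The make-up of the family therefore differed between tumors. Reg3g held 6.72%, 4.29%, 6.36% and 10.4% of the Reg counts in WT tumors, 3.08% in C3-/- replicate 1 (95% Wilson interval 2.76% to 3.44%) and 18.8%, 27.6% and 25.5% in the other C3-/- tumors. Reg2 held 36.5%, 18.5%, 32.6% and 33.7% in WT tumors, 35.9% in C3-/- replicate 1 and 7.26%, 2.96% and 8.49% in the others. Reg1 held 32.1% to 47.9% in those 3 tumors and 18.9% to 36.5% in the other 5, where WT replicate 2 had the highest share. Reg3b kept the most even share, 22.6% to 38.3% over all tumors. The family as a whole made up 99.9, 151, 91.2 and 48.9 CPM in WT tumors and 463, 17.0, 12.8 and 5.80 CPM in C3-/- tumors.

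**Figure D5:**
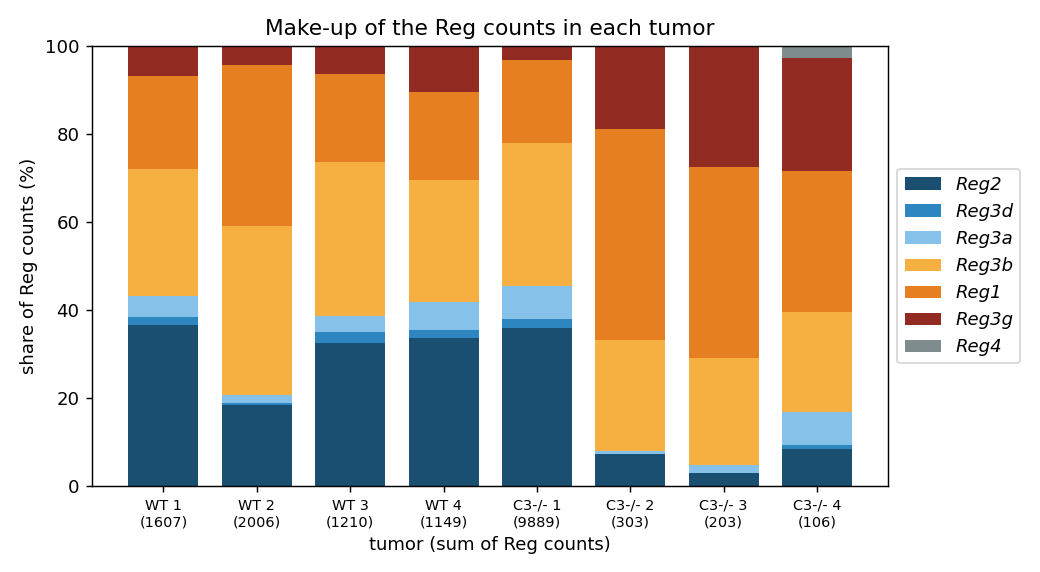
Share of the summed Reg counts held by each gene (vertical axis, percent, stacked from 0 to 100) in the 8 tumors, with the sum of Reg counts in brackets. Reg2 (dark blue) holds 18.5% to 36.5% where acinar transcripts are higher and 2.96% to 8.49% in C3-/- replicates 2 to 4, where Reg3g (dark red) holds 18.8% to 27.6%, more than in the other 5 tumors.

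By likeness of pattern (Pearson r of log2 CPM over the 8 tumors, among 14988 genes), Reg2 was nearest to Prss2 (r = 0.997), Ctrb1 (0.994) and Rnh1 (0.982). Reg3d was nearest to Rnase1, Klk1 and Cela3b, at 0.985 to 0.988, all of which are secreted by the exocrine pancreas. For Reg3b the nearest were Mgat4b, Try5 and Mzt2 (0.978 to 0.981), and for Reg3g they were Safb, Pnliprp1 and Cpa1 (0.962 to 0.975). Reg3a was nearest to Gm6204, Lefty1 and Gm2296 (0.968 to 0.984) and Reg1 to Tpi-rs11, Keap1 and Anapc7 (0.961 to 0.980). Prss2 itself stood at place 109 for Reg1, 47 for Reg3g, 10 for Reg3a and 7 for both Reg3b and Reg3d. Without replicate 1 the r of the same pairs with these nearest genes ranged from 0.942 (Reg3g and Pnliprp1) to 0.997 (Reg2 and Prss2), and the r with Prss2 was 0.822 for Reg1 and 0.849 for Reg3g. The tumors share 3 clusters of acinar level, so these values describe the pattern only.

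The cytokine genes that are known to induce Reg3 genes are given as values, since a count of 0 called is also the count over all genes between genotypes, and 5.11% of all 16610 genes had an unadjusted p below 0.05. The ligand gene Il22 was listed at 4 counts in WT replicate 3 and 0 elsewhere, close to the floor of 3. Il6 had 33, 21, 121 and 118 counts in WT tumors and 41, 39, 34 and 86 in C3-/- tumors, which overlap (log2 fold change -0.70, SE 0.54). Of the 8 ligand genes tested, 4 were higher and 4 lower in C3-/- tumors and 0 were called by edgeR, with 2 at an unadjusted p below 0.05, of which Lif had 0.55 on the log2 scale (unadjusted p = 0.0179, adjusted p = 0.960). Of the 11 receptor genes tested, 9 were higher, 2 lower and 0 called, with 1 at an unadjusted p below 0.05. Il6st, the shared IL-6 family receptor, had 0.21 (SE 0.21), the oncostatin receptor Osmr 0.30, the IL-22 receptor subunit Il22ra1 -0.10 and Extl3 0.05 (SE 0.11). The Extl3 difference was smaller than its SE, with 918 to 1832 counts per tumor.

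The STAT3 signalling genes were read beside the same 0 called and 5.11% over all genes. Among 10 JAK-STAT3 transducers and inhibitors 5 were higher, 5 lower and 0 called (3 at an unadjusted p below 0.05), with Stat3 at -0.12 and its feedback inhibitor Socs3 at 0.12. Among 17 STAT3 target genes 7 were higher, 10 lower and 0 called (2 at an unadjusted p below 0.05), with a median log2 fold change of -0.018 against -5.8e-05 over all genes. Against Prss2, no gene of these 4 lists was called (edgeR), where the share over all genes was 0.187% with a positive slope, and their median slopes lay between -0.06 and 0.04. Stat3 had a slope of -0.0032 and Socs3 of 0.03, beside 0.84 for Reg3a and 0.72 for Reg3b. These are transcript levels of whole tumors, and the activity of STAT3 was not measured.

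Genes of pancreatic injury and metaplasia, which Reg genes often accompany, were also set beside them. Of 19, 0 were called by genotype, as over all genes, and 0 against Prss2 (edgeR), where 0.187% of all genes were called. Between genotypes 2 had an unadjusted p below 0.05, against 5.11% of all genes, and the median slope was 0.046. Clu, a chaperone of injured epithelium, had a slope of 0.046, the duct keratin gene Krt19 0.13 and the metallothionein gene Mt1 0.15, none of which passed. Of 11 duct genes, 0 were called in either test (0 at an unadjusted p below 0.05 between genotypes). Of 12 intestinal genes tested 1 was called with Prss2, Zg16, which is also in the acinar list, and the intestinal genes Vil1 (756 to 1470 counts) and Cdx2 (119 to 362) had slopes of -0.012 and 0.088. Of 8 gastric genes tested 0 were called, with Gkn1 at a slope of 0.075. The gastric list was present in all tumors, at 248 CPM of the library total in WT replicate 2 and 498 to 1383 in the others. Hepatocyte and skeletal muscle genes, of which 5 and 10 were tested, gave 0 calls in either test, and 2 hepatocyte genes had an unadjusted p below 0.05 between genotypes. The skeletal muscle sum was 32 to 48 counts in WT replicates 2 and 3 and C3-/- replicate 2 and 26254 to 98785 counts in the other tumors, an order unlike that of the Reg genes.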

How the data were processed

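RNA of KPC tumors from 4 WT and 4 C3-/- mice was sequenced from poly-A selected, paired-end libraries. The authors deposited raw counts per gene on mm39 and FPKM values, which the authors made from size-factor-normalized counts per kilobase of gene length. The submitters' processing notes name HISAT2 2.0.5 and DESeq2 1.20.0, whereas the paper names STAR and HTSeq; the strand setting is not given in the sources used here. Comparison columns of the table (normalized counts, fold values and p-values by the authors) were not used. Counts (total 13266029 to 23354212) were tested with edgeR 4.0.16 in R 4.3.3 (filterByExpr with a minimum count of 10, TMM, quasi-likelihood F test, Benjamini-Hochberg over all genes tested), after a trial on simulated data. CPM were scaled to the TMM-normalized total unless the library total is named. The relation with Prss2 used log2 CPM (prior count 2) beside genotype, and ratios used a pseudocount of 0.1 CPM. A count of 3 or fewer was treated as the floor. No pair of tumors agreed within sampling noise (chi-square per gene at least 15.0). Replicates are tumors numbered in the labels, and p-values measure the spread between these samples.

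Genes were named by a fixed rule: the 7 Reg genes, C3 and Prss2, at most 4 genes of highest mean count in each list, 8 cytokine and STAT3 pathway genes, and the 3 genes most like each tested Reg gene among those with a mean of at least 20 counts. The family and the lists were chosen with earlier results of these data known. Zg16 and the tumors without C3-/- replicate 1 were singled out after their values were seen. Promoters came from RefSeq (7 of 7 members matched), genes and coding sequences from GENCODE vM39 on GRCm39. Alternatives were DESeq2 1.42.0, limma-voom (limma 3.58.1), DESeq2 size factors, other count filters, robust fitting, a replicate block, Ctrb1 or the acinar list for Prss2, no genotype term, another pseudocount, and each tumor left out in turn. The full genotype of the mouse that gave the cell line is not reported here.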

Additional observations from a re-analysis of the deposited data

Results flagged for a closer look

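A single tumor stood far from the other 3 of its genotype in 2 of 26 groups of 4 tumors examined by Dixon's ratio, where chance gives about 1.3. Reg3d in C3-/- tumors reached 3.31 log2 CPM in replicate 1, with the next at -2.56. The other C3-/- tumors held 0, 0 and 1 Reg3d counts, so their log2 CPM rest on the prior count. Prss2 in C3-/- tumors reached 7.90 log2 CPM in replicate 1, with the next at 0.54. Reg1, Reg2, Reg3a, Reg3b and Reg3g were also highest in that tumor among the C3-/- tumors, but their gaps stayed under Dixon's critical value. Even so, Reg2 was 237-fold above the mean of the other C3-/- tumors in CPM.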

How the results depend on the processing

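Direction between genotypes turned under several settings. limma-voom gave -3.12 for Reg2, -1.78 for Reg3a, -1.82 for Reg3b and -2.96 for Reg3d (log2), and the replicate number as a block gave -3.54, -1.81, -2.36 and -2.01 for the same genes. Same-numbered tumors deviated together in only some pairs (correlations -0.03, 0.49, -0.36 and 0.59), so the numbers do not pair the tumors. Leaving out 1 tumor moved Reg1 from -2.33 to 0.65, Reg2 from -5.28 to 1.02, Reg3a from -3.67 to 1.75, Reg3b from -3.5 to 0.69, Reg3d from -5.75 to 1.22 and Reg3g from -1.14 to 0.22, the lowest always without C3-/- replicate 1. Reg1 was 0.65 without WT replicate 2, and 0.29, 0.31 and 0.38 without C3-/- replicates 2, 3 and 4, where Reg3g was 0.10, 0.06 and 0.22. Genes called ranged from 0 to 4, and DESeq2 called 16 while giving no adjusted p for Reg2, Reg3a and Reg3d. The cause was not tested. Without C3-/- replicate 1, a setting chosen after seeing the data, 6 Reg genes had genotypes that did not overlap.

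Genes called with Prss2 numbered 62 with no filter, 4 where each tumor had to hold 10 counts, 10 with the replicate block and 7 with the acinar list in place of Prss2. Leaving out 1 tumor gave 0 to 1445. With no filter Reg1 (0.52, adjusted p = 0.00565) and Reg3g (0.29, adjusted p = 0.0356) were called by edgeR. With the block Reg3d lost its call (1.12, adjusted p = 0.0660), and Reg3b did with the acinar list (0.77, adjusted p = 0.195). Over the tumors left out, slopes ranged from 0.47 to 0.71 for Reg1, 0.89 to 1.02 for Reg2, 0.16 to 0.90 for Reg3a, 0.67 to 0.77 for Reg3b, 0.62 to 1.17 for Reg3d and 0.12 to 0.35 for Reg3g. Over the same tumors the log2 difference of the ratio to Prss2 ranged from 1.17 to 2.73 for Reg1, -0.36 to -0.19 for Reg2, 0.95 to 1.62 for Reg3a, 0.53 to 1.55 for Reg3b, 0.68 to 1.42 for Reg3d and 1.57 to 3.79 for Reg3g. A pseudocount of 1 CPM gave 1.25, -0.11, 1.67, 0.58, 1.93 and 1.84 for these genes in the same order.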
